A study of Mus musculus with 34 samples.

Results

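Resting mouse bone marrow-derived macrophages were profiled on 4 Affymetrix MG-U74Av2 arrays, which are the 4 of 34 arrays in the study whose titles place them at T0. The other 30 arrays held wild-type, IL-10-/- or IL-6-/- macrophages treated with LPS, alone or with IL-10 or IL-6, and are used here only as a yardstick for spread and for the sex-linked transcripts. Per the labels, marrow cells were grown for 7 days in L cell conditioned medium as the source of CSF-1, and were rested for 1 h in complete DMEM before RNA was taken in Trizol. No LPS, IL-10 or IL-6 was given. The titles call the arrays biological replicates 1 to 4, named arrays 1 to 4 here, and the labels give no genotype, strain, sex or age for them and no number of mice. The free-text description of these samples speaks of embryos, which the titles, the source name and the marker genes below go against.

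Macrophages are phagocytes that engulf particles and dying cells and break them down in lysosomes. Their growth and survival depend on CSF-1, which signals through the receptor tyrosine kinase encoded by Csf1r, and the transcription factor PU.1, encoded by Spi1, sets much of their gene programme. At rest they carry receptors for microbial products, complement components and the machinery of antigen presentation, while most inflammatory cytokine genes wait for a stimulus.

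The values are MAS5 signals, a linear measure of brightness per probe set that the authors had scaled to the same trimmed mean on each array. A signal depends on how well the probes of a set bind as well as on how much transcript is there, so a rank orders probe sets and not molecules per cell. In 2073 genes with 2 or more probe sets, the brightest set was a median of 3.44 times as bright as the dimmest, and in 455 of them over 10 times. A gene is given below by its brightest probe set outside the array's controls, and a signal under 200 says that this probe set was dim, not that the transcript was missing.

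Of 12422 probe sets, 4720 (38%) had a signal of 200 or more in all 4 arrays, 3373 reached it in 1 to 3 arrays and 4329 in none. The 4720 included 458 that the platform table gives no gene symbol or several. Of 8251 genes with a probe set of their own, 3761 (45.6%) passed, 2217 reached 200 in 1 to 3 arrays and 2273 in none. The median signal was 787 over the passing genes and 274 over all genes. The passing counts of the gene lists below are to be read beside the 45.6% of all genes. At the edge of the threshold, Ets2 passed with a lowest signal of 200, Ezh2 and Trh with 200.2, while Serf2 missed it with a lowest signal of 199.8, Zfp1 and Cbr2 with 199.7.

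Array 4 stood apart from arrays 1 to 3 in its sex-linked transcripts. Xist, the RNA that coats the inactive X chromosome of female cells, had signals of 70.5, 26.1, 25.2 and 2241 in arrays 1 to 4. Eif2s3y, a translation initiation factor gene on the Y chromosome, had 586, 503, 566 and 25.9, and Uty, a Y-linked homologue of a histone demethylase, had 117, 121, 110 and 13.1. Xist was thus high in array 4 alone, and both Y-linked genes were low in it alone. Kdm5d, also Y-linked, stayed under 200 in every array, at 28.5, 16.3, 83.5 and 107.5. In the 30 other arrays of the study Xist lay between 3.6 and 114.6 and Eif2s3y between 382.6 and 914.8, so no other array had the Xist and Eif2s3y values of array 4. Uty ran from 11.7 to 170.3 in those arrays, and so reached as low as in array 4 elsewhere. Kdm6a, the X-linked partner of Uty and a gene known to escape X inactivation, was looked up after the Xist values were seen. It had 406, 429, 436 and 1469, again highest in array 4. The array orders and spreads of the gene lists that vary most are therefore also given without array 4.

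The arrays also differed at the dim end. Array 4 had the most probe sets at 200 or more, 6833, and array 3 the fewest, 5606, against 6280 in array 1 and 6318 in array 2. Among the 2273 genes under 200 in all 4 arrays, array 4 was the highest in 36.7% and array 3 in 9.77%. Among passing genes the arrays lay close, with medians of 776, 792, 780 and 788 in arrays 1 to 4. Low signals of array 4 that exceed those of the other arrays are to be read beside these shares. The 3′ to 5′ signal ratios of the control probe sets, a measure of RNA integrity, lay between 1.15 and 1.25 for beta-actin and between 0.867 and 0.970 for Gapdh.

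**Figure D1:**
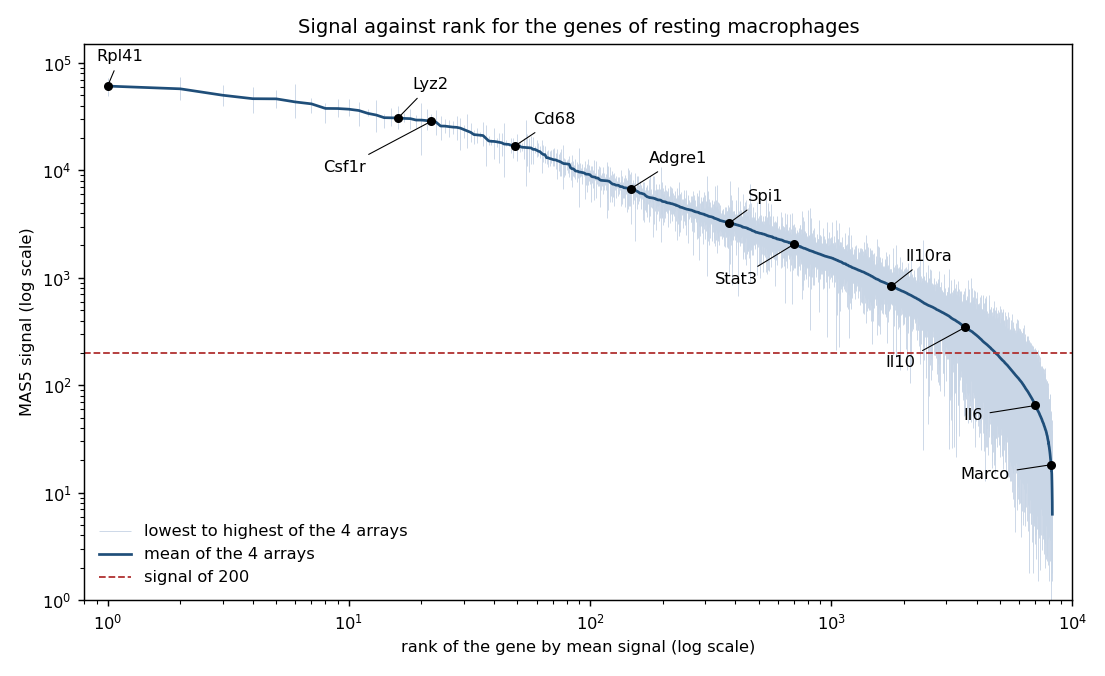
Mean MAS5 signal (vertical axis, log scale) against the rank of each of 8251 genes by that mean (horizontal axis, log scale). Vertical lines span the lowest to the highest of the 4 resting arrays, and the dashed line marks 200; Rpl41 ranks 1, Csf1r 22, Stat3 702, Il10 3591 and Marco 8154.

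The brightest genes belonged to protein synthesis, lysosomes, iron and lipid handling, complement and antigen presentation. The ribosomal protein gene Rpl41 ranked 1, with signals of 66410, 72958, 49270 and 54781 in arrays 1 to 4. Ctsb, the lysosomal cysteine protease cathepsin B, ranked 2, with 74225, 56258, 44700 and 54354. These exchanged the first and second rank between arrays. Eef1a1, which brings aminoacyl-tRNA to the ribosome, the ferritin heavy chain gene Fth1, the growth-related Tpt1 and the apolipoprotein gene Apoe followed at ranks 3 to 6. The 25 brightest genes held 12.5% of the summed gene signal and the 100 brightest 28.0%. In all, 69 genes were above 10000 in every array and 1151 above 1000.

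The order of the brightest genes was similar from array to array. Of the 25 brightest genes of each array, 17 were shared by all 4 arrays and 35 appeared in at least 1. Of the 100 brightest, 76 were shared and 130 appeared. The median gap between a gene's best and worst rank was 23 places within the 100 brightest genes and 738 places over all passing genes. Among the 100 brightest genes, 74 belonged to at least 1 of 41 functional lists. The lysosomal and the ribosomal protein lists held 14 each, the actin cytoskeleton list 10, macrophage identity 7, and the list of secreted proteases, inhibitors and matrix proteins 7. These lists overlap. Of the 100 brightest probe sets, 35 have no symbol of their own in the platform table and are not described by function.

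Several genes that define macrophages were among the brightest on the arrays, 7 of them in the first 100 ranks and 13 in the first 500. Of 26 measured macrophage identity genes, 18 passed (69.2%, against 45.6% of all genes), and their median rank was 495.5 against 4126 for all genes. Csf1r, the CSF-1 receptor, had 33289, 27961, 27065 and 26461 in arrays 1 to 4, a mean of 28694 ± 3125 (SD, n = 4) at rank 22. Its order was tight, since its ranks in the single arrays ran from 19 to 25. Cd68, a lysosomal glycoprotein of phagocytes, had 18488, 16084, 16125 and 17178 at rank 49. Lyz2, lysozyme M, had 39808, 29100, 24201 and 29769 at rank 16. Tyrobp, the adaptor DAP12 of activating receptors, ranked 26, Mpeg1, the pore-forming perforin-2, ranked 31, Cd14, the LPS co-receptor, ranked 33, and the galectin gene Lgals3 ranked 36.

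Other surface markers were bright but uneven. Adgre1, which encodes F4/80, had 9638, 4566, 9710 and 3181, so that arrays 1 and 3 lay above arrays 2 and 4. Itgam, the CD11b integrin chain, had 2714, 3360, 2453 and 838, with array 4 the lowest. Itgax, the CD11c chain of dendritic cells and some macrophages, lay at the threshold, at 208, 238, 206 and 193. The probe sets of 4 identity genes were under 200 in all 4 arrays, namely the scavenger receptor genes Marco (mean 18.2) and Cd36 (85.0), the sialoadhesin gene Siglec1 (99.0) and the Fc receptor gene Fcgr3 (147). Clec4e, a receptor for mycobacterial glycolipid, and Axl, a receptor for dying cells, reached 200 in some arrays only.

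The transcription factors of the myeloid lineage were present at lower signals. Spi1 had 2765, 3271, 3849 and 3063, a mean of 3237 ± 458 (SD, n = 4) at rank 378. The spread of Spi1 was below that of most genes, with an SD of 0.20 on the log2 scale. Cebpa and Cebpb, bZIP factors of granulocytes and macrophages, averaged 4091 and 3285, the interferon regulatory factor genes Irf5 and Irf8 3125 and 2630, and Lyl1, a basic helix-loop-helix factor of blood stem cells and progenitors, 4979. Cebpa was the least even of these, at 5245, 4022, 4797 and 2301. Of 27 measured factors, 17 passed. Myb, a factor of immature progenitors, and Gfi1, a factor of granulocytes, were under 200 in every array, with means of 40.5 and 57.4. Pparg, a nuclear receptor of lipid-laden macrophages, reached 200 in arrays 1 and 3 only, at 229, 24.7, 362 and 40.6.

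**Figure D2:**
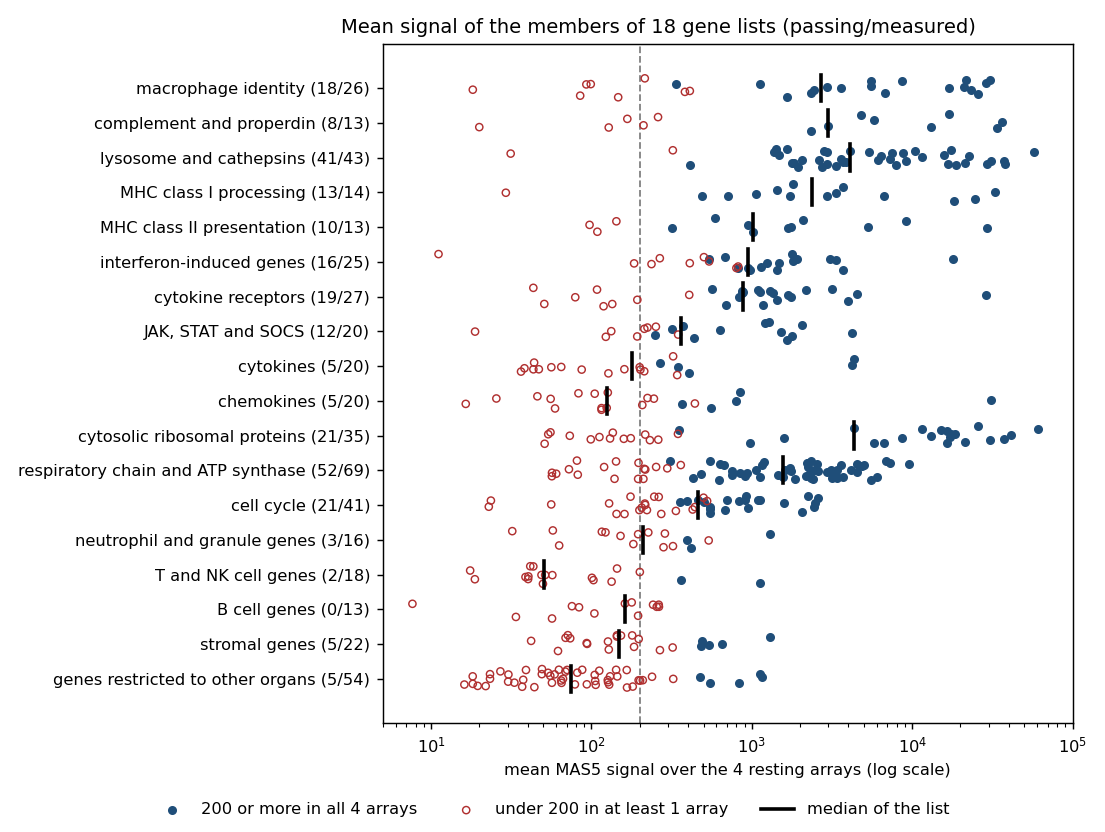
Mean MAS5 signal over the 4 resting arrays (horizontal axis, log scale) of every measured member of 18 gene lists. Filled points were at 200 or more in all 4 arrays, open points were not, black bars are list medians and the dashed line marks 200; all but 2 of 43 lysosomal genes passed, and none of 13 B cell genes did.

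Nearly all lysosomal genes passed. Of 43 measured lysosomal genes, 41 passed, with a median rank of 275, and 30 stood among the 500 brightest genes. Besides cathepsin B, the membrane protein gene Lamp1 averaged 37691, the aspartic protease gene Ctsd 37602, the sphingolipid activator precursor gene Psap 30792, the cysteine protease gene Ctss 29055 and the lysosomal membrane gene Laptm5 22572. These 6 genes ranked between 2 and 32. Grn, the progranulin gene, had 17665, 17834, 16996 and 17229, a spread of 0.03 on the log2 scale, and Atp6ap1, an accessory subunit of the lysosomal proton pump, had 3272, 3315, 3361 and 3431. Both were among the 8 genes with the smallest spread of all. Ctsk, the cathepsin of osteoclasts, reached 449, 250, 151 and 436, and Ppt1, a palmitoyl-protein thioesterase, was under 200 throughout.

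Iron and heme genes were led by ferritin. Fth1 had 60302, 43194, 34080 and 48151 at rank 4. Hmox1, heme oxygenase 1, averaged 5311 ± 501 (SD, n = 4), the iron transporter gene Slc11a1 2918 and the transferrin receptor gene Tfrc 1879. Aco1, an iron-regulatory aconitase, and Fech, the last enzyme of heme synthesis, averaged 56.6 and 120 and were under 200 in every array. Of 14 measured genes, 9 passed.

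Complement genes were bright in their first component. C1qc had 43474, 39892, 34869 and 25945 at rank 11, C1qb had 37046, 33952, 32453 and 32134 at rank 12, and C1qa had 16135, 21738, 17831 and 12139 at rank 50. Array 4 was the lowest in all 3 chains of C1q. The receptors for the anaphylatoxins C3a and C5a, encoded by C3ar1 and C5ar1, averaged 13095 and 4764, and Cfp, properdin, 5803. Of 13 measured complement genes, 8 passed. Hc, complement C5, and Cfb, factor B, were under 200 in every array, with means of 20.0 and 128.

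Antigen presentation by MHC class I was represented by 13 of 14 measured genes. The heavy chain gene H2-D1 had 44954, 30995, 32267 and 22622, H2-K1 had 30761, 25742, 27013 and 15352, and B2m, the light chain, had 19247, 22360, 19631 and 11666. Array 4 was the lowest in each. The heavy chain genes are near-identical in places, so that their probe sets may share targets. Tap1, a subunit of the peptide pump, had 1928, 1235, 2925 and 849, and Tapbp, tapasin, averaged 6654. The exception was Calr, the chaperone calreticulin, whose probe set had 51.3, 27.0, 21.4 and 17.3.

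MHC class II genes passed in 10 of 13 measured. Apart from the proteases Ctss and Lgmn, the brightest was Cd74, the invariant chain, at 5191, 3126, 10653 and 2161. H2-Aa, a class II alpha chain, had 1998, 753, 3459 and 479. Both were highest in array 3 and lowest in array 4. The B cell class II modulators H2-Oa and H2-Ob and the probe set of H2-DMb2 did not pass.

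The receptors that the study was built around were measurable at rest. Il10rb, the shared chain of the IL-10 receptor, had 5205, 4255, 6044 and 2672 at rank 236, and Il10ra, the ligand-binding chain, had 828, 570, 1187 and 754 at rank 1775. Il6ra had 944, 1550, 776 and 1411, and Il6st, which encodes the shared signal transducer gp130, had 571, 434, 906 and 349. All 4 receptor genes passed in every array. The orders of the arrays were opposite for the chains of the IL-6 receptor, with arrays 2 and 4 above arrays 1 and 3 in Il6ra and below them in Il6st. A second Il6st probe set, at 557, 328, 293 and 411, did not show this split.

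Among 27 measured cytokine receptor genes, 19 passed. After Csf1r and Il10rb, the brightest were Tnfrsf1b, TNF receptor 2, at a mean of 3962, Csf2rb2, a mouse-specific IL-3 receptor chain, at 3158, Csf2rb, the common beta chain, at 2163, and Il4ra at 1761. Csf2rb2 and Csf2rb are near-identical copies and may share probes. Il2ra, the IL-2 receptor alpha chain of activated T cells, Il18r1 and Tgfbr2 were under 200 in every array, with means of 43.4, 50.8 and 79.2.

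Downstream of these receptors, 12 of 20 measured JAK, STAT, SOCS and phosphatase genes passed. Stat3, the transcription factor of the IL-10 and IL-6 receptors, had 2038, 1623, 2372 and 2200, a mean of 2058 ± 321 (SD, n = 4) at rank 702. Jak1 averaged 1522, Stat6 1663 and Stat5a 1279. The phosphatase genes Ptpn1 and Ptpn6, which dampen such signals, averaged 4234 and 1773. Socs3, the feedback inhibitor of gp130 signalling, lay at the threshold, with 161, 187, 213 and 210. The phosphatase gene Ptpn11, and Socs2 and Stat4, were under 200 in every array.

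Receptors and adaptors for microbial products passed in 9 of 14 measured genes, with Tlr2, Tlr4 and Ly96 not analysed here. Cd14 was the brightest, at 17749, 23854, 23453 and 21046, followed by Ly86, which encodes the MD-1 partner of RP105, at 5997, 4365, 7398 and 3405. The adaptor gene Myd88 averaged 1253 ± 250.2 (SD, n = 4), and the kinase gene Irak1 692. Tlr7, a receptor for single-stranded RNA on the X chromosome, had 225, 244, 255 and 47.7, so array 4 was the lowest. Tirap, another adaptor, was under 200 in every array.

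The kinases and adaptors of myeloid signalling passed in 21 of 24 measured genes. The G protein gene Gnai2 averaged 29386 at rank 19, the GTPase gene Rac2 8052, the kinase genes Prkcd and Syk 5547 and 4866, and the adaptor genes Skap2 and Hcls1 3846 and 2719. Other probe sets of Gnai2 were dimmer, with means of 12988 and 3664. The exchange factor gene Vav1 had 1505, 1640, 3105 and 1609, with array 3 apart from the others. Array 3 was the highest in 15 of the 21 passing genes, against 26.4% of all passing genes.

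Of 11 measured NF-kappaB genes, 8 passed. Rela, the p65 subunit, had 3961, 4848, 5966 and 3401, and Nfkbia, which encodes the inhibitor IkappaBalpha, had 4058, 1395, 2706 and 1709. Bcl3, a nuclear IkappaB protein that is known as an IL-10 target, had 1095, 650, 1138 and 694. Array 1 was above array 2 in both inhibitors. The inhibitor gene Tnfaip3 and the subunit gene Rel passed 200 in 1 array each, at 304 in array 1 and at 250 in array 4.

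Cytokine genes were mostly dim. Of 20 measured, 5 passed and 8 were under 200 in all 4 arrays, with a median signal of 180 against 274 for all genes. Igf1, a growth factor of tissue macrophages, had 5893, 2115, 5339 and 3969, and Tgfb1 had 5253, 3204, 4856 and 3492. Array 2 was the lowest in both. Il10 had 208, 262, 605 and 312, and so passed narrowly, with array 3 the highest. The array's control probe set for Il10, at 319, 350, 431 and 356, was also highest in array 3. The other passing members were Csf1 at a mean of 403 and Il1rn, whose product blocks the IL-1 receptor, at 268.

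The inflammatory cytokines lay at or under the threshold. Tnf had 598, 71.5, 336 and 286, and Il1b had 211, 106, 189 and 348. Neither was at 200 in every array, and the order of the arrays differed between them. Il6 had 12.2, 19.2, 4.0 and 224, with array 4 alone above 200. Il12b, the p40 subunit of IL-12 and IL-23, had 29.1, 33.1, 94.4 and 17.1, and Il1a, Il12a, Csf2 and Ltb were likewise under 200 in every array. The probe set of Mif, a cytokine that many cells store, averaged 56.2.

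Among 20 measured chemokine genes, 5 passed. Ccl9, a chemokine of the MIP-1 family, had 31765, 33722, 33380 and 24879 at rank 14, and was the only chemokine gene among the 500 brightest genes. Ccl6 averaged 846, Ccl3 796, Ccl22 558 and Ccl2 369. Ccl4, which lies beside Ccl3 in the genome, had 695, 350, 678 and 42.8, with array 4 the lowest. Cxcl9, Cxcl13 and Ccl17 were under 200 in every array, with means of 16.4, 25.5 and 46.0.

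Immediate early genes passed in 17 of 25 measured. Jund, an AP-1 subunit, averaged 12885 ± 2072 (SD, n = 4) at rank 68. Fos had 810, 793, 1844 and 999, and Egr1 had 415, 492, 260 and 601. Ier3, an early response gene of growth factors, had 3605, 4053, 1263 and 3918, with array 3 apart. Atf3, a stress-induced repressor, had 5030, 1610, 5306 and 865, and Zfp36, which encodes the mRNA-destabilising protein tristetraprolin, had 3449, 1677, 3715 and 1091. Both were higher in arrays 1 and 3 than in arrays 2 and 4. A second probe set of Atf3 had the same split, at 1897, 546, 2074 and 613. Myc was at 22.9, 10.0, 6.3 and 10.9.

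Glycolysis was represented by 13 of 18 measured genes, of which 3 stood among the 100 brightest. Pkm, pyruvate kinase, averaged 18592, Aldoa, aldolase A, 12535, Hk1, hexokinase 1, 9208 and Ldha, lactate dehydrogenase A, 8076. The muscle-type lactate dehydrogenase subunit gene Ldha was thus bright while Ldhb did not pass, at 276, 167, 80.8 and 264. The glucose transporter gene Slc2a1 had 53.3, 172, 139 and 275.

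The citrate cycle passed in 21 of 22 measured genes, with a median spread of 0.22 on the log2 scale against 0.29 for all passing genes. Sdhb, Sdhc and Sdhd, 3 subunits of succinate dehydrogenase, averaged 3485, 3073 and 3052, and Mdh2, malate dehydrogenase, 3054. Pdha1, a subunit of pyruvate dehydrogenase, had 1173, 1111, 1130 and 1141, among the 8 smallest spreads. Of 69 measured genes of the respiratory chain and ATP synthase, 52 passed. The brightest were Cox6a1, with a mean of 9533, Atp5l with 7259, Cox6c with 6888 and Ndufa7 with 6045. The muscle isoform genes Cox6a2 and Cox7a1 averaged 56.6 and 81.2 and were under 200 in every array.

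Enzymes of oxidant production and defence passed in 24 of 29 measured genes. Cyba, the p22phox subunit of the phagocyte oxidase, had 19676, 17385, 19726 and 17713 at rank 39, and Txn1, thioredoxin, averaged 8062. Nos2, the inducible nitric oxide synthase gene, had 80.3, 119, 22.7 and 26.1, and Arg1, arginase 1, had 19.9, 97.4, 14.7 and 31.0. These markers of the classical and the alternative mode of activation were both under 200 in every array.

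Lipid genes passed in 19 of 28. Apoe had 63021, 32876, 30710 and 46619 at rank 6. Plin2, which coats lipid droplets, had 17866, 10971, 29304 and 7212, and Lpl, lipoprotein lipase, had 3426, 1037, 8883 and 1925. Array 3 was the highest and array 1 the next in both. A second Lpl probe set had 737, 314, 1758 and 682, with the same array highest and the same array lowest. The sterol synthesis genes Cyp51 and Dhcr7 and their regulator Insig1 were under 200 in every array.

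Ribosomal protein genes lay far apart in signal. Of 35 measured, 21 passed, with a median spread of 0.19, and 14 of these were among the 100 brightest genes. Rps28 averaged 41566, Rps24 37086, Rplp0 30424, Rps18 25806 and Rpl19 21282. At the other end, 7 were under 200 in every array, among them Fau (mean 51.0), Rps14 (53.8), Rpl35a (55.5) and Rpl39 (99.0). The remaining 7 reached 200 in 1 to 3 arrays.

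The other machinery lists were largely complete. Translation factors passed in 20 of 26 measured genes, the proteasome in 31 of 34 and chaperones in 28 of 31. The elongation factor gene Eef2 averaged 10171, the poly(A)-binding protein gene Pabpc1 9587, the proteasome subunit genes Psmb4 and Psma2 3702 and 3463, and the chaperone genes Hspa8, Hspa5 and Hsp90b1 6537, 4581 and 4338. The inducible heat shock genes Hspa1b and Hspb1 averaged 212 and 43.7 and did not pass.

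Actin regulators passed in 32 of 37 measured genes, 23 of them among the 500 brightest. Tmsb4x, the actin-sequestering thymosin beta 4, averaged 30280, the actin gene Actg1 25260, cofilin, Cfl1, 14009 and the bundling protein gene Lcp1 11542. Array 4 was the lowest in 18 of the 32, against 27.9% of all passing genes, and the median SD of the list was 0.30, or 0.24 without array 4. Actb had 7462, 1698, 1147 and 912.5, while the control probe set for the 3′ end of the same transcript had 58334, 67255, 40221 and 63405. The control set thus showed neither the low level nor the high array 1, and the Actb signal of the ordinary probe sets is not used further. Adhesion genes passed in 21 of 27, led by the tetraspanin genes Cd63 and Cd53 (8729 and 8471) and the integrin gene Itgb1 (8004). Itgav, the alpha v integrin chain, had 1072, 3568, 4528 and 3808, with array 1 apart. Its other probe sets, at 518, 547, 19.6 and 260, and at 210, 259, 215 and 25.4, did not set array 1 apart. Among secreted and matrix-related genes 19 of 31 passed, led by Lgals1, galectin 1, with a mean of 28066, Lgals3 with 21087 and the calcium-binding S100a6 and S100a4 with 16249 and 16210. The protease genes Mmp2, Mmp9 and Mmp13 did not pass.

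Survival genes passed in 15 of 19. Mcl1, an anti-apoptotic BCL2 family member, averaged 4303, the pro-apoptotic Bcl2l11 and Bak1 1993 and 1395, and the inflammatory caspase gene Casp1 734.

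The markers of other cell types were mostly dim. Of 18 T and NK cell genes, 2 passed, Cd28 (mean 1121) and Cd4 (363), while the T cell receptor component gene Cd3g averaged 17.5, Zap70 134 and Thy1 40.4. Their summed signal was 2563, 2437, 1938 and 3514 in arrays 1 to 4. Of 13 B cell genes none passed, and their sums were 1767, 1668, 1285 and 2962. Array 4 had the highest sum for both lymphocyte lists. Of 12 erythroid and megakaryocyte genes 1 passed, Hba-a1, a haemoglobin alpha chain, at 218, 280, 278 and 544. Of 12 mast cell genes 1 passed, Cma1, a mast cell protease gene, at a mean of 593. Its other probe sets averaged 57.1 and 33.2, while Cpa3 and Kit averaged 64.6 and 62.1.

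Granulocyte genes were low but not at 0. Of 16 measured, 3 passed, namely the receptor gene Csf3r (mean 1289), which macrophages also carry, and the secreted protein genes Lcn2 (419) and Camp (392). Other probe sets were dimmer. That of Lcn2 averaged 132, and those of Csf3r fell to 79.2 and 146.3 in array 4. The neutrophil alarmin genes S100a8 and S100a9 had 175, 418, 919 and 640, and 61.7, 162, 397 and 528. Both were lowest in array 1. The primary granule protease gene Ctsg averaged 32.1. The summed signal of the list was 3825, 3985, 5117 and 5771.

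Of 22 stromal genes 5 passed, all of them matrix genes. Col1a2 had 1485, 1439, 1329 and 948, Col1a1 had 882, 382, 455 and 892, and Bgn, biglycan, had 644, 275, 226 and 1027. Arrays 1 and 4 were above arrays 2 and 3 in Col1a1 and Bgn, and in a second Col1a2 probe set at 238, 50, 106 and 398. The summed signal of the list had the same split, at 6887, 4811, 3974 and 7615. The fibroblast genes Dcn, Lox and Postn were under 200 in every array. Of 12 endothelial genes 1 passed, Eng, endoglin, which macrophages can express, at a mean of 1684. Cdh5, Kdr, Tie1 and Tek did not pass. Of 11 dendritic cell genes 4 passed, among them Flt3 (792) and Cd83 (504), while Ccr7 had 244, 114, 76.7 and 237. Of 8 osteoclast genes 2 passed, Tnfrsf11a (552) and Nfatc1 (381), while Acp5 and Calcr did not.

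As a rough measure of signal where little transcript is expected, 54 genes best known from other organs were looked at. Their median signal was 74.7, and 33 of them were under 200 in all 4 arrays. Whether any of them is expressed in macrophages was not tested. The 5 that passed were Tnp1, a nuclear protein of spermatids (mean 1151), the myelin gene Mbp (1130), the skin gene Lor (836), the pancreatic elastase gene Cela1 (548) and growth hormone, Gh (475). Of 54, this is 9.26% against 45.6% of all genes. If these 5 are not expressed here, a signal above 200 in 1 probe set does not by itself show expression. Passing genes near the threshold, Il10 among them, are to be read with that limit.

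The spread between the 4 arrays was moderate for most genes. Over the 4720 passing probe sets, the median SD of log2(signal + 50) was 0.30, a 1.23-fold factor, with 25th and 75th percentiles of 0.21 and 0.42, and the median coefficient of variation was 22.1%. The SD exceeded 1 in 43 probe sets (0.911%) and was under 0.1 in 191. Among these passing probe sets, the median SD was 0.31 for mean signals from 200 to 500 and 0.23 above 10000. The filter removes any probe set with an array under 200, which limits the SD of dim sets most. These values therefore do not show how spread depends on brightness. With no filter the median SD over all probe sets was 0.415. Array 4 was the farthest from the median of the 4 in 30.7% of the probe sets, array 1 in 24.9%, array 3 in 24.3% and array 2 in 20.1%. Without array 4 the median SD was 0.27, and without another array it lay between 0.28 and 0.30.

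Pairs of resting arrays lay farther apart than pairs of stimulated arrays. The median absolute log2 difference within a pair was between 0.29 and 0.37 for the 6 resting pairs, and between 0.17 and 0.29 for the 13 groups of stimulated cells with 2 arrays each. Of these 13 groups, 8 were IL-10-/- or IL-6-/- cells and 5 wild-type. The ranges did not overlap, the closest resting pair being arrays 1 and 3. After quantile normalization over all grouped arrays they did, with resting pairs from 0.28 to 0.39 and stimulated pairs from 0.17 to 0.28. The 6 resting pairs share 4 arrays, and the difference between the kinds of pair was not tested. Spearman's correlation within a resting pair, over the passing probe sets, lay between 0.836 and 0.907.

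**Figure D3:**
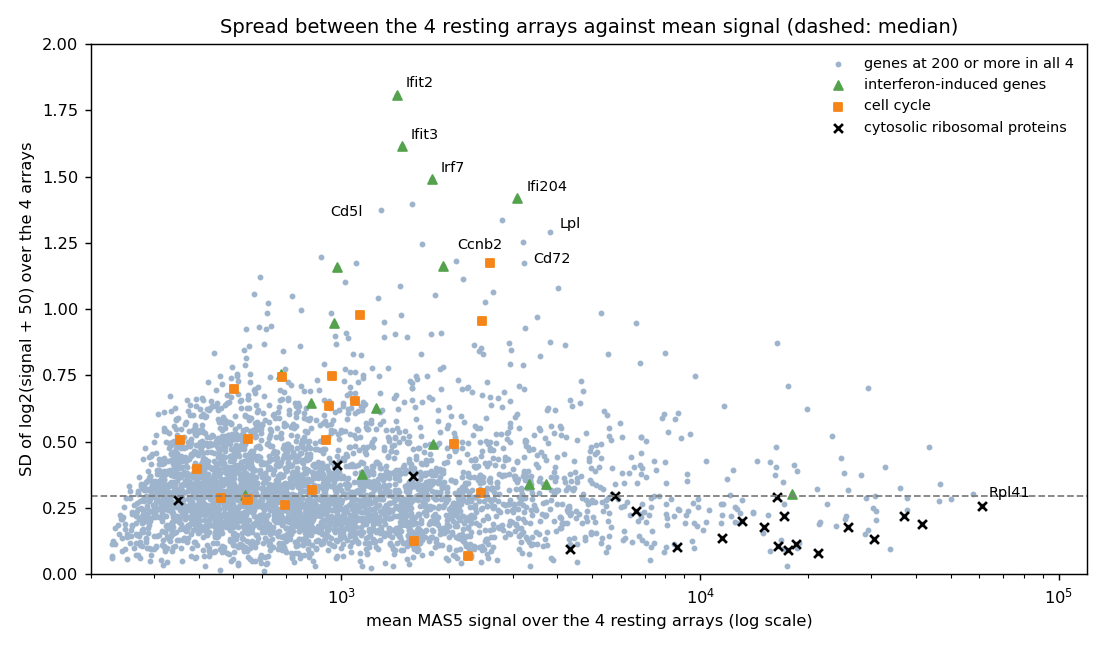
SD of log2(signal + 50) over the 4 resting arrays (vertical axis) against the mean MAS5 signal (horizontal axis, log scale) of the 3761 passing genes. Triangles mark interferon-induced genes, squares cell cycle genes and crosses ribosomal protein genes; Ifit2 and Ifit3 have the largest SDs, 1.81 and 1.62.

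The 15 largest SDs included 4 interferon-induced genes (Ifit2, Ifit3, Irf7 and Ifi204), the class II gene H2-Aa, the lipase gene Lpl, the scavenger protein gene Cd5l, the stress factor gene Atf3, the mitotic cyclin gene Ccnb2 and the kinesin gene Kif22. Cd5l, also called AIM and made by tissue macrophages, had 2966, 274, 1286 and 630, with array 1 the highest. Cd72, a lectin-like receptor, had 1333, 2070, 8021 and 1494, with array 3 apart. Tradd, a TNF receptor adaptor, had 1133, 280, 3273 and 1616. The smallest SDs were those of the sugar transporter gene Slc50a1, at 609, 606, 612 and 600, and of Pias2, a SUMO ligase gene, at 450, 461, 461 and 459.

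Interferon-induced genes varied together. Type I interferon induces a set of antiviral genes, many of which carry a sequence known as the interferon-stimulated response element in their promoters. Ifit2, an antiviral RNA-binding protein, had 1991, 282, 3204 and 226 in arrays 1 to 4, Ifit3 had 1611, 625, 3449 and 213, and Isg15, a ubiquitin-like modifier, had 1883, 920, 4207 and 641. Each was highest in array 3, next in array 1, then in array 2 and lowest in array 4. Irf7, the transcription factor that amplifies the response, had 1439, 892, 4485 and 327, and Ifi204, a DNA sensor, had 3206, 1424, 7040 and 682. These followed the same order, and a second Irf7 probe set, at 467, 512, 657 and 200, also had array 3 highest and array 4 lowest. Gbp2, a guanylate-binding protein, had 936, 319, 1014 and 436. The spread was narrower for Ifitm3, a membrane protein that blocks viral entry, at 16798, 19376, 22367 and 13699.

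Over the list, 16 of 25 measured interferon-induced genes passed. Array 3 was the highest in 15 of the 16, against 26.4% of all passing genes, and array 4 was the lowest in 11, against 27.9%. Arrays 1 and 3 both exceeded arrays 2 and 4 in 13, against 20.8%. The median deviations from the 4-array mean were 0.24, -0.39, 0.77 and -0.75 on the log2 scale in arrays 1 to 4. The median SD of the list was 0.70, against 0.29 for all passing genes, and it was 0.71 without array 4 and 0.59 without array 3. Without array 4, 21 of the 25 reached 200 in every remaining array, against 48.1% of all genes. Of all 25 measured members, those under 200 included, array 3 was the highest in 22, against 16.9% of all measured genes. Among these were Gbp3, at 561, 309, 982 and 158, and Igtp, at 401, 351, 707 and 181, both interferon-induced GTPase genes. With array 4 left out, array 3 was the highest of arrays 1 to 3 in 15 of the 16 passing genes, against 34.5% of all passing genes, and array 2 the lowest in 13, against 34.1%. The part of the sex-linked difference of array 4 in these values was not tested.

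The promoters of some of these genes are shown with the word TTCNNTTTC, the core of the interferon-stimulated response element, or its reverse complement, in capitals. Each stretch is the 150 bases before the RefSeq transcription start in GRCm38.p6, written 5′ to 3′ in the direction of the gene: Isg15 at chr4:156200819-156200968 on the minus strand, Ifit3 at chr19:34583379-34583528 on the plus strand and Gbp2 at chr3:142620513-142620662 on the plus strand.
Isg15: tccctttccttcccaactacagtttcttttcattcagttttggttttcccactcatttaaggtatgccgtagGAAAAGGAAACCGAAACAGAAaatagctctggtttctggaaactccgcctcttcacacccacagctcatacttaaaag
Ifit3: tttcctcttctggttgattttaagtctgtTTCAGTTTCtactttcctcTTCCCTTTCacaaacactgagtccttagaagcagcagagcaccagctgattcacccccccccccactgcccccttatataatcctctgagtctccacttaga
Gbp2: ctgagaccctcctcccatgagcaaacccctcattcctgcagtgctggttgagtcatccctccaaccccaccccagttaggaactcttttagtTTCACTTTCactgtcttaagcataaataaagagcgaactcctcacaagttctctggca
The word begins 78 bases before the start in Isg15, 121 in Ifit3 and 58 in Gbp2, counting the first match, and overlapping matches are joined. Over the whole RefSeq promoter, from 250 bases before to 50 after the start, it was found in 45.8% of the 24 promoters of the interferon list, in 6.65% of the 3999 promoters of passing genes, in 7.68% of the 2201 promoters of genes under 200 in all 4 arrays and in 8.56% of all 32851 promoters. A match is a description of letters, not a measured binding site.

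**Figure D4:**
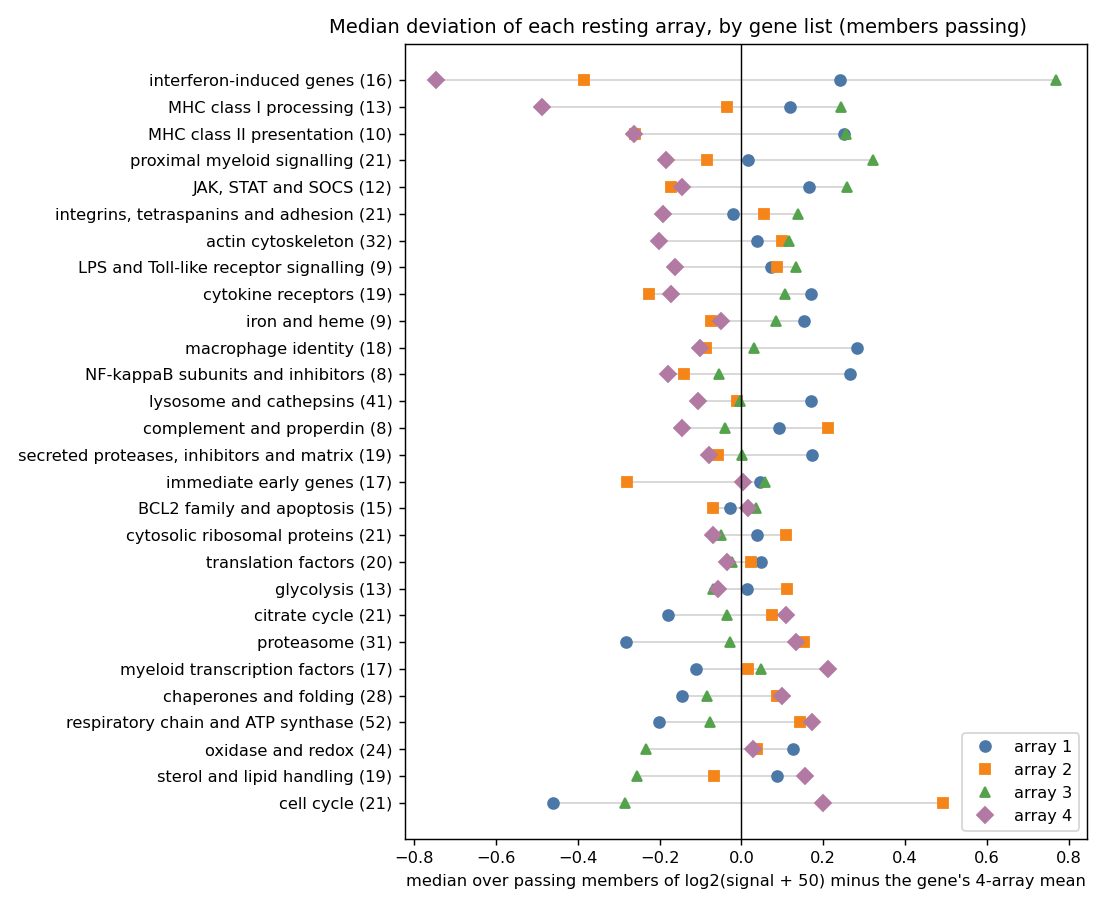
Median over the passing members of each gene list of log2(signal + 50) minus the gene's mean over the 4 arrays (horizontal axis), for each resting array. Lists with 8 or more passing members are ordered by array 3 minus array 4; the interferon list runs from -0.75 in array 4 to 0.77 in array 3, and the cell cycle list from -0.46 in array 1 to 0.49 in array 2.

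MHC class II genes shared part of this order. Arrays 1 and 3 exceeded arrays 2 and 4 in 9 of the 10 passing genes, against 20.8% of all passing genes. Ifi30, a lysosomal thiol reductase, was the exception, at 1194, 1964, 2280 and 2841. With array 4 left out, array 2 was the lowest of arrays 1 to 3 in the same number, 9 of 10, against 34.1%. The largest median deviation of the class I list was -0.49, in array 4, and its median SD was 0.41, against 0.34 without array 4. The dendritic cell and B cell lists, whose cells also carry class II, had sums of 4490, 3875, 2912 and 4207, and of 1767, 1668, 1285 and 2962, so array 3 had the lowest sum of both. Array 3 also had the lowest median over the genes under 200 in all 4 arrays. The medians of these genes were 55.1, 58.3, 37.4 and 56 in arrays 1 to 4. The part of the dendritic cell and B cell lists in the class II values was not tested.

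Cell cycle genes split the arrays the other way, with arrays 2 and 4 above arrays 1 and 3. Of 41 measured, 21 passed (51.2%, against 45.6% of all genes) and none was among the 500 brightest. Ccnb2, the mitotic cyclin B2, had 1016, 5314, 992 and 3051 in arrays 1 to 4, and Stmn1, a microtubule regulator of dividing cells, had 1255, 5017, 1178 and 2417. Cdc20, an activator of the anaphase-promoting complex, had 594, 2173, 458 and 1293, and Cdk1, the mitotic kinase, had 557, 1541, 503 and 1165. Array 2 was the highest and array 4 the next in each of these. Tk1, a thymidine kinase of S phase, had 267, 893, 693 and 880, and Mcm7, a subunit of the replicative helicase, had 246, 837, 347 and 572.

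Arrays 2 and 4 both exceeded arrays 1 and 3 in 14 of the 21 passing genes, against 21.7% of all passing genes, and array 2 was the highest in 15, against 22.9%. The median deviations were -0.46, 0.49, -0.28 and 0.20. Of all 41 measured members, arrays 2 and 4 exceeded the others in 30, against 25.9% of all measured genes. Mki67 and Top2a, proliferation markers named after their values were seen, had 237, 742, 107 and 914, and 68.5, 538, 28.6 and 252. Cdk4, which acts in early G1, and Cdkn1a, which encodes the inhibitor p21, did not share the pattern, at 2275, 2216, 2135 and 2394, and at 1616, 1622, 1401 and 1734. A second Cdkn1a probe set had 1977, 947, 1500 and 954, with arrays 1 and 3 above arrays 2 and 4. In bulk RNA, more dividing cells and more transcript per cell cannot be told apart. With array 4 left out, array 2 was the highest of arrays 1 to 3 in 16 of the 21, against 34.9% of all passing genes. The median SD of the list was 0.51, and it was 0.37 without array 1, 0.42 without array 2 and 0.55 without array 4.

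The promoters of the mitotic genes are shown in the same way, with the word CCAAT or its reverse complement in capitals, since it recurs in genes of this phase. They are Ccnb2 at chr9:70421555-70421704, Cdk1 at chr10:69352913-69353062 and Cdc20 at chr4:118437344-118437493, all on the minus strand.
Ccnb2: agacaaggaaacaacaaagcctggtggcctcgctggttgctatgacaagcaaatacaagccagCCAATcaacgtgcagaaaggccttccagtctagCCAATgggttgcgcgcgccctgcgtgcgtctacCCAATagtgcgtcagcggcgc
Cdk1: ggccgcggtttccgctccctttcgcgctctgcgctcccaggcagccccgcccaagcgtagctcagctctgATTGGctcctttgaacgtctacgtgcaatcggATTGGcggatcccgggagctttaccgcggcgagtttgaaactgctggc
Cdc20: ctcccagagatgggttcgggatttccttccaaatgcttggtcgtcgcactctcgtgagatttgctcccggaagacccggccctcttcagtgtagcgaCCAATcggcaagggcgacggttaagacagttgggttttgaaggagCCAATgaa
Within these 150 bases, Ccnb2 holds 3 copies of the word, and Cdk1 and Cdc20 hold 2 each. CCAAT was found in 65.9% of the 41 promoters of the cell cycle list, in 36.3% of the promoters of passing genes, in 35.8% of those of genes under 200 in all 4 arrays and in 37.4% of all promoters. The share was not particular to the cell cycle list. It was 78.6% in the MHC class I list, 69.2% in the citrate cycle list and 66.7% in the MHC class II list. Other lists lay lower, down to 8.33% in the NF-kappaB list.

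Part of the energy and protein turnover lists had the same order. Arrays 2 and 4 exceeded arrays 1 and 3 in 27 of the 52 passing genes of the respiratory chain, in 11 of 21 of the citrate cycle and in 12 of 31 of the proteasome, against 21.7% of all passing genes. Array 1 was the lowest in 29 of the 52, against 27% of all passing genes. With array 4 left out, array 2 was the highest of arrays 1 to 3 in 32 of 52, 14 of 21 and 19 of 31 genes of these lists, against 34.9% of all passing genes. Cox6a1 had 7425, 10401, 8909 and 11396, and Fh1, fumarase, had 1022, 2156, 1538 and 2114. The median deviations of the respiratory list were small, from -0.20 in array 1 to 0.17 in array 4.

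The macrophage identity list had a median SD of 0.50, against 0.29 for all passing genes, and of 0.41 without array 3 or without array 4. Its members did not move as a block. Mpeg1 had 27086, 15987, 33334 and 16736, with arrays 1 and 3 above arrays 2 and 4 as in Adgre1, while Csf1r, Cd68 and Cd14 differed by much less. The receptor gene Ptprc, which encodes the leukocyte antigen CD45, had 1406, 722, 1867 and 585. A second Ptprc probe set, at 942, 669, 1119 and 1059, had array 4 above array 1. The lysosomal list as a whole had a median SD of 0.26 and median deviations between -0.11 and 0.17. The largest of these was that of array 1, which was the highest in 18 of the 41 passing lysosomal genes, against 22.5% of all passing genes.

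**Figure D5:**
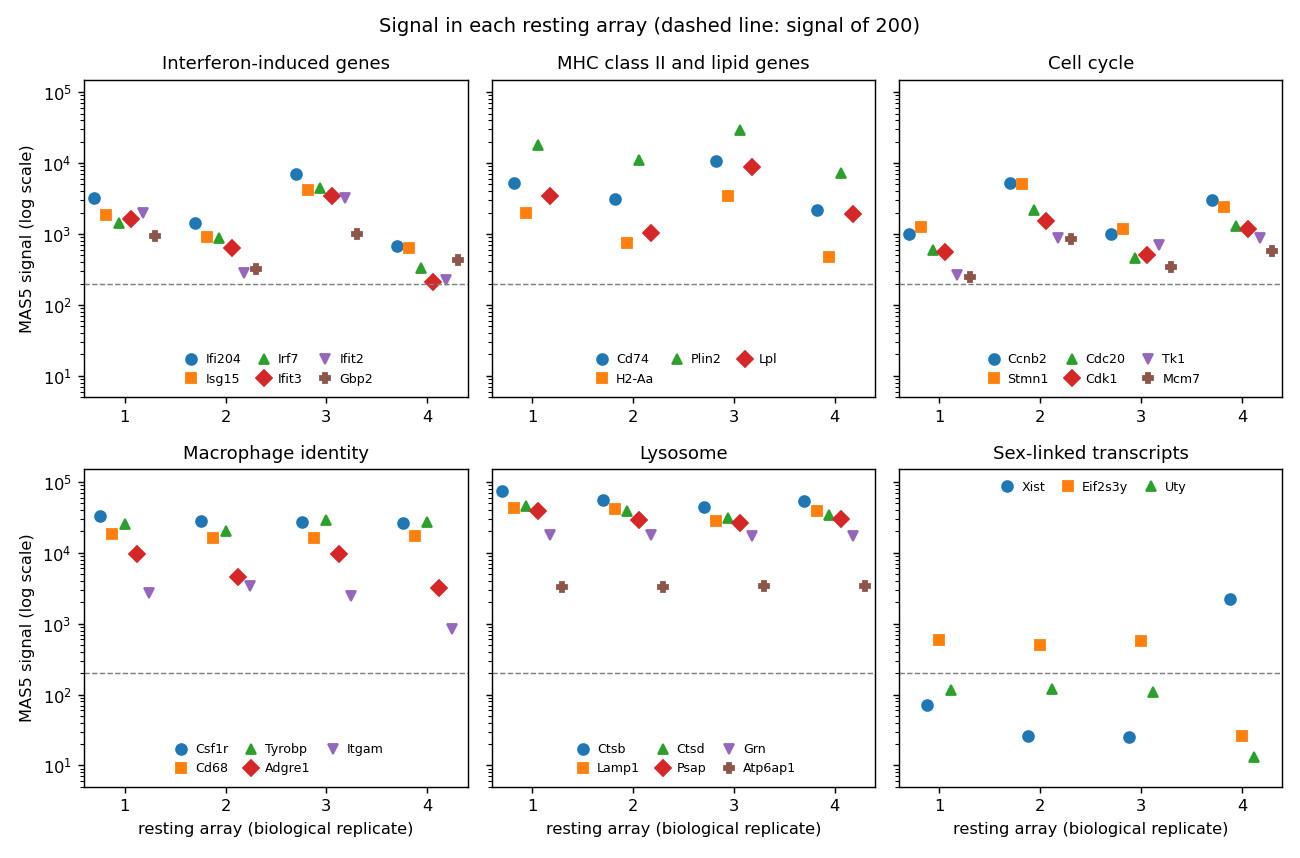
MAS5 signal (vertical axis, log scale) in each of the 4 resting arrays (horizontal axis, genes set side by side within an array) for 6 groups of genes, with a dashed line at 200. Interferon and class II genes are higher in arrays 1 and 3 than in arrays 2 and 4. The cell cycle genes shown are higher in array 2 than in array 1 or 3. Of the lysosomal genes, Grn and Atp6ap1 are level while Ctsb and Psap are highest in array 1. Xist and Eif2s3y set array 4 apart.

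Promoters were also searched for other words. The word TCACGTGA, an extended E-box bound by TFEB and its relatives, was found in 12.8% of the 39 promoters of the lysosomal list, in 2.35% of those of passing genes, in 0.772% of those of genes under 200 in all 4 arrays and in 0.974% of all promoters. The Ctsd promoter, at chr7:142387828-142387977 on the minus strand, holds it 99 bases before the start, in capitals here.
Ctsd: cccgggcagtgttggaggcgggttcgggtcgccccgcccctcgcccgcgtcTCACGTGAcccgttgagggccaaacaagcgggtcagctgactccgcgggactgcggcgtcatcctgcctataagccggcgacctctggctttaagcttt
Passing genes differed from dim genes in words that many active promoters share. GGGCGG, a GC box, was in 63.2% of the promoters of passing genes, against 47.9% of those under 200 in all 4 arrays, and CCGGAAGT, a word of ETS factors, in 9.38% against 3.82%. TATAAA was in 7.30% against 13.5%. The word GAGGAAGT, a form bound by PU.1, was in 3.10% against 2.45%. It was in none of the 20 promoters of the macrophage identity list and none of the 37 of the myeloid transcription factor list. Other lists held it more often, with 44.4% of the 18 promoters of the granulocyte list, 20.8% of the 24 of the adhesion list and 12% of the 25 of the myeloid signalling list. GC content was 60.9% in the promoters of passing genes and 57.4% in those of dim genes, and its part in these shares was not tested. Of the 3761 passing genes, 3098 matched a RefSeq promoter by gene identifier.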

How the data were processed

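Complementary RNA (cRNA) made from the RNA of resting macrophages had been hybridised to single-colour arrays, with an input of 10 µg each, per the labels' protocols. The deposited values are MAS5 signal intensities, computed by the authors, per the submitters' processing notes; the MAS5 version is not given in the sources used here. The 4 arrays had the same mean signal after trimming 2% at each end. They were used as deposited, without the 66 control probe sets. Genes were named from the platform table, only for probe sets with 1 symbol, and each gene was given by its brightest probe set. Spread is the SD of log2(signal + 50). One group has no contrast, so no test was run.

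Members, gene lists and thresholds were chosen with earlier results of these data known. The genes named are the 25 brightest, up to 6 bright and 6 dim members of each of 41 lists, the 15 largest and 8 smallest SDs, 3 genes on each side of the threshold, members of lists in which an array deviated by over 0.3, and the receptors, cytokines and markers of the study. Kdm6a, Mki67 and Top2a were added after their values were seen. Nothing says how many mice gave the 4 arrays, so the spread may be partly technical, and the number of arrays limits the precision. The stimulated arrays entered as 13 pairs, and 2 arrays without a clear group were left out of the pairs. Promoters are RefSeq's, GRCm38.p6. Python 3.11.15, pandas 2.3.3, numpy 2.4.6 and matplotlib 3.10.9 were used, and the calculations were tested on simulated data. Other thresholds, pseudocounts, quantile normalization, other rules for a gene's probe set and leaving out each array were tried.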

Additional observations from a re-analysis of the deposited data

Results flagged for a closer look

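Of the 271 genes named, 14 (5.17%) had 1 array whose gap to the nearest of the other 3 took up most of the whole range, past the 95% critical value of Dixon's ratio. Chance gives about 1 in 20 such genes, and among all passing genes 190 (5.05%) met the same limit. The genes named include some that did not pass, so the sets behind these shares are unlike. The array was array 4 in 8 of the 14, array 1 in 3 and array 3 in 3. The genes of array 4 include the sex-linked Xist, Eif2s3y, Uty and Kdm6a, and Kdm6a was added after its values were seen. Over all passing probe sets, array 4 was the farthest from the median in 30.7%.

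In array 4, Xist stood at 2241 and Kdm6a at 1469, above the other arrays, and Eif2s3y at 25.9 and Uty at 13.1, below them. Tlr7, also on the X chromosome, stood at 47.7, against 225 to 255 in the others. Il6 stood at 224 in array 4, against 4.0 to 19.2 in the others. The endothelial cadherin gene Cdh5 stood at 192, against 6.8 to 15, and Rpl39 at 27.9, against 110 to 131. The Cdh5 value is to be read beside the 36.7% of genes under 200 in all 4 arrays in which array 4 was the highest.

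In array 1, Tnfrsf1b stood at 5656, against 3316 to 3559 in the others, Itgav at 1072, against 3568 to 4528 (its other probe sets did not set array 1 apart), and the class II gene H2-DMb2 at 268, against 37.0 to 45.8. In array 3, Ier3 stood at 1263, against 3605 to 4053 in the others, Vav1 at 3104, against 1505 to 1640, and the acid phosphatase gene Acp5 at 226, against 109 to 121.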

How the results depend on the processing

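At a threshold of 500, 2640 probe sets and 2153 genes passed in all 4 arrays. Without each array in turn, the counts at 200 lay between 4867 and 5053 probe sets and between 3871 and 4001 genes. The median spread was 0.249 with a pseudocount of 200 and 0.415 with no filter on low signals, and lay between 0.266 and 0.2997 without each array in turn. With a pseudocount of 200 the median pair difference was 0.251 for resting and 0.175 for stimulated pairs. Array 4 remained the farthest array under quantile normalization and pseudocounts of 10 and 200, in 30.5% to 33.3% of probe sets. In every setting tried, 28 of the 41 lists had a larger passing share than all genes. Leaving out arrays for the lists and their array orders was chosen after seeing the data. No result changed direction, but resting and stimulated pairs overlapped under quantile normalization. No paired analysis was possible because the results come from a single group and from no test. Dim signals limit the genes near 200, where probe sets of genes of other organs also passed.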
